A study of Homo sapiens with 6 samples.

Results

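The DMSO libraries of DU145, which describe this cell line after 24 h with the solvent alone, were examined on their own. They were chosen by their labels as the libraries of cells given the solvent alone, and they made up 3 of the 6 samples of the series. The other samples received 1 µM CCS1477 for 24 h and were not analysed here. DU145 is an established human prostate cancer line that grew from a brain metastasis. All cells were labelled WT in genotype and were grown in RPMI-1640 with fetal bovine serum. RNA was enriched for poly-A tails on oligo-T beads, so transcripts without a tail are poorly sampled. The labels do not say whether the 3 replicates were separate cultures, so the spread given here may be technical. DMSO 1, 2 and 3 held 11956748, 11931870 and 8286883 estimated counts, and the shallowest was also the library that stood apart from the others most often. Values given as 3 numbers follow the order DMSO 1, DMSO 2 and DMSO 3.

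Prostate epithelium is built from luminal cells, which secrete kallikreins, from basal cells that rest on the basement membrane, and from rare neuroendocrine cells. Each cell type is held in its state by a small group of transcription factors. DU145 is known to carry a mutation in RB1. RNA levels show how much transcript of such a gene is present, not whether its protein works.

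Gene positions are given as the deposited tables list them, with a genome build that is not given in the sources used here. A gene was counted as expressed where it reached at least 1 TPM (transcript units scaled to the same sum in each library, corrected for transcript length) in each of the 3 libraries. It was placed at the detection floor where no library held more than 3 counts, which corresponds to between 0.251 and 0.362 CPM (counts scaled to library size, without correction for length). A gene with 0 counts may thus still lie at up to that level. By these rules 14127 of 60623 gene IDs were expressed and 41676 were at the floor. Of the 19916 protein-coding genes of GENCODE 29, 12120 (60.9%) were expressed, 2192 were in between and 5604 (28.1%) were at the floor. The shares of 60.9% and 28.1% are the ones to set beside the counts given below for lists of protein-coding genes. The libraries were alike in the number of genes with any count, which was 20664, 20503 and 20843. Leaving out DMSO 3 gave 14488 expressed gene IDs, and leaving out DMSO 1 or DMSO 2 gave 14413 and 14451. Only 124 gene IDs had a mean of at least 1000 TPM, and 1495 had at least 100 TPM. The median protein-coding gene that was expressed had 21.4 TPM. Of 8627 nuclear protein-coding genes with a mean of at least 10 TPM, 5166 were lower in DMSO 3 than in both other libraries on TPM. A lowest TPM value in DMSO 3 was thus the common order and not particular to the genes named below.

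The label of a prostate cancer cell line was checked against defining markers. The epithelial markers were abundant: EPCAM, a cell surface adhesion protein of epithelia, had 216, 262 and 204 TPM (mean 227 ± 31.01, SD, n = 3), and the simple-epithelium keratin gene KRT18 had 845, 780.2 and 789.8 TPM. Proliferation markers were also present, with TOP2A, which untangles DNA in dividing cells, at 245, 220.2 and 162 TPM. Markers that define the luminal prostate were not: KLK3, KLK2 and HOXB13 had 0 counts in all 3 libraries. Leukocyte, endothelial and fibroblast markers were mostly at the floor. Of 14 leukocyte markers 11 were at the floor, with PTPRC, CD3D and CD3E at 0 counts, and the summed level of the list was 70.6, 61.99 and 37.5 TPM. Nearly all of that sum was CD68, a lysosomal protein that is not confined to macrophages, at 66.1, 56.5 and 34.6 TPM. CD14 was expressed too, at a mean of 3.66 TPM. The 10 endothelial markers summed to between 3.15 and 4.04 TPM with PECAM1 at 0 counts, and the 12 fibroblast and muscle markers to between 7.72 and 12.9 TPM. Of the fibroblast markers DCN, LUM and COL3A1 had 0 counts. COL1A1 was detected in each library, at 14.3, 20.7 and 18.5 TMM CPM (counts scaled to library size and composition, without correction for length). These are bulk libraries, in which a low level in every cell and a high level in a few cells cannot be told apart.

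The most abundant transcripts came from mitochondria, ribosomes, the cytoskeleton, glycolysis and iron and metal storage. The 100 genes with the highest mean level held 36.1% ± 2.07 of all TPM (SD, n = 3). Of these genes, 47 encode cytosolic ribosomal proteins, 14 are mitochondrially encoded, 8 belong to the actin, tubulin and cytoskeleton list, 5 each to glycolysis and the translation factors, 3 each to the annexin and S100 list and the iron, antioxidant and metallothionein list, and 2 to the chaperones. Genes of the mitochondrial genome took 13.3%, 17.2% and 14.5% of TPM, and cytosolic ribosomal proteins took 13.4%, 11.7% and 17.1%. Both shares were smaller as shares of counts, at 5.52% ± 0.64 and 3.86% ± 0.633 (SD, n = 3), since TPM divides each count by a transcript length. DMSO 2 was the highest of the libraries in mitochondrial TPM and the lowest in ribosomal TPM, and DMSO 3 was the highest in ribosomal TPM.

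**Figure D1:**
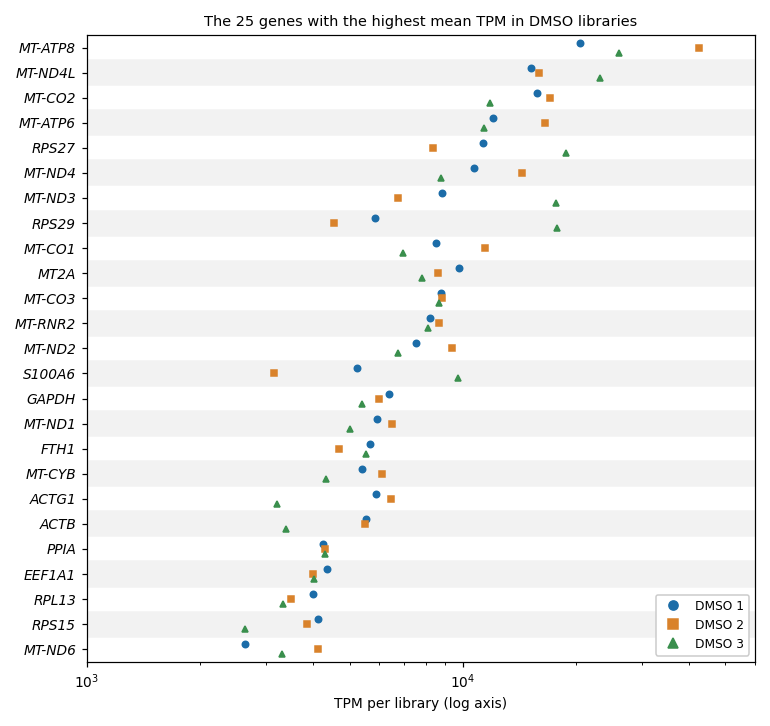
TPM of the 25 genes with the highest mean level (vertical axis) in each DMSO library (points, log horizontal axis). Mitochondrial genes fill 13 of the 25 places, and short genes such as RPS27, RPS29, MT-ND3 and S100A6 lie to the right in DMSO 3.

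MT-ATP8, a subunit of the mitochondrial ATP synthase, ranked first by TPM with 20531, 42443 and 26030.2 TPM, but these rest on only 521, 1457 and 459 counts. It overlaps MT-ATP6 on the mitochondrial genome, and reads of the overlap can be split between them. Ranked by counts, the leading genes were MT-ND4, a subunit of respiratory complex I, with 104879, 140145 and 66558 counts, MT-CO1 with 95123, 127719 and 60541, and the mitochondrial ribosomal RNA MT-RNR2 with 93042, 97646 and 71273. The leading nuclear gene by counts was EEF1A1, which brings aminoacyl-tRNA to the ribosome, with 64596, 61779 and 47692 counts. Rank order among the leading genes thus differed between the scales.

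Among nuclear genes, RPS27 led by TPM with 11355, 8345 and 18859 TPM. The metallothionein MT2A, which binds zinc and copper, ranked after RPS29 at 9785, 8619 and 7811 TPM (8738 ± 992, SD, n = 3), with DMSO 1 highest and a narrow spread. The ferritin heavy chain gene FTH1 had 5670.0, 4688 and 5543 TPM, and its light chain partner FTL had 3075, 2625 and 2456 TPM. GAPDH, the glycolytic dehydrogenase, had 6377, 5997 and 5406 TPM, and the other leading glycolysis genes ALDOA, ENO1 and PKM had means of 2742, 2729 and 2670.4 TPM. In that list 22 of 26 genes were expressed (84.6%), while LDHC, the testis form of lactate dehydrogenase, had 0 counts. The actin genes ACTG1 and ACTB had 5888, 6452 and 3214 TPM and 5520.2, 5510.1 and 3396 TPM, so both were lowest in DMSO 3, and both have processed pseudogenes that may share their reads. PPIA, a peptidyl-prolyl isomerase, was the steadiest of the 25 leading genes after MT-CO3 by coefficient of variation, with 4238, 4312 and 4315 TPM. NQO1, TXNRD1 and PRDX1, enzymes of antioxidant defence, had means of 903, 811 and 898 TPM, and MT1G, another metallothionein, had 0 counts.

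Of the 100 leading genes, 12 stood in none of the gene lists used here. One of them, chosen after its value was seen, was UCHL1, a ubiquitin hydrolase gene that is abundant in neurons. It had 1804, 1863 and 1493 TPM, from 11404, 11274 and 8686 counts. S100A6, a small calcium-binding protein, had 5242, 3144 and 9738 TPM, a level that in DMSO 3 was 3.10 times that in DMSO 2.

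Transcription factors of the luminal prostate were present in part. Of 8 such genes 4 were expressed, 2 were in between and 2 were at the floor, HOXB13 among them with 0 counts in every library. FOXA1 (ENSG00000129514, chromosome 14, 37589552 to 37596059, minus strand), a factor that opens chromatin for other factors, had 51.6, 46.4 and 32.9 TPM, or 43.6 ± 9.70 (SD, n = 3), and was lowest in DMSO 3. GATA2, a zinc finger factor, had 17.4, 17.2 and 13.04 TPM. CREB3L4, a membrane-bound factor of prostate epithelium, had 13.3, 13.4 and 14.9 TPM. SPDEF, an ETS factor of secretory epithelium, stayed under 1 TPM in each library, at 0.9, 0.7 and 0.89 TPM.

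The luminal differentiation genes split by kind. The keratin genes KRT18, KRT8 and KRT19 had means of 805, 712 and 538 TPM, but several secreted and membrane products of the prostate were at the floor. KLK3, which encodes prostate-specific antigen, its relative KLK2 and FOLH1, which encodes prostate-specific membrane antigen, had 0 counts in all 3 libraries. TMPRSS2, a protease gene that is a partner in prostate fusions, had 0, 3 and 0 counts. FKBP5, a co-chaperone gene that glucocorticoids induce, was expressed at 48.9, 48.6 and 46.1 TPM, and AMACR, a peroxisomal enzyme used as a prostate cancer stain, had 25.4, 25.9 and 22.98 TPM. Of 21 genes in the list 9 were expressed (42.9%, against 60.9% of all protein-coding genes) and 10 were at the floor. The 2 shares are a description of a list that was drawn up for this cell line, not a test.

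Basal epithelium was represented by its matrix and adhesion genes but not by its defining factors. TP63, the master factor of basal cells, and the keratin genes KRT5, KRT14, KRT6A and KRT6B had 0 counts in every library. LAMB3, a laminin chain of the basement membrane, had 223, 222 and 193 TPM. CD44, a hyaluronan receptor, had 64.9, 76.7 and 72.1 TPM, and ITGB4, the integrin chain of hemidesmosomes, had 50.95, 53.1 and 27.3 TPM. On TMM CPM, where DMSO 3 was also the lowest, ITGB4 had 146, 135 and 112, which is a 1.30-fold range. Of the 18 genes 9 were expressed (50%, against 60.9% of all protein-coding genes) and 7 were at the floor (38.9%, against 28.1%).

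Most genes of the neuroendocrine list were at the floor, but a few were abundant. NEUROD1, INSM1 and POU3F4, factors that drive neuroendocrine identity, and MYCN had 0 counts. At the floor were 16 of the 27 listed genes (59.3%, against 28.1% of all protein-coding genes). The list also holds YAP1 and REST, which are typically low in neuroendocrine carcinoma, so its count is not one of neuroendocrine markers alone. NKX2-1, a homeobox factor of lung and thyroid that is also used as a stain for small cell carcinoma, stood out with 129, 100.2 and 87.3 TPM, or 106 ± 21.6 (SD, n = 3), and was highest in DMSO 1. ENO2, an enolase that neurons use, had 109.6, 94.8 and 100.1 TPM. UCHL1, also abundant in neurons but in no list, had 1804, 1863 and 1493 TPM and does not enter the count. YAP1 and REST had 106, 107 and 71.2 TPM and 27.5, 19.9 and 13.8 TPM. PEG10, an imprinted gene of retroviral origin, had 51.6, 80.8 and 53.4 TPM, and DLL3, a Notch ligand, had 5.65, 2.08 and 3.17 TPM.

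**Figure D2:**
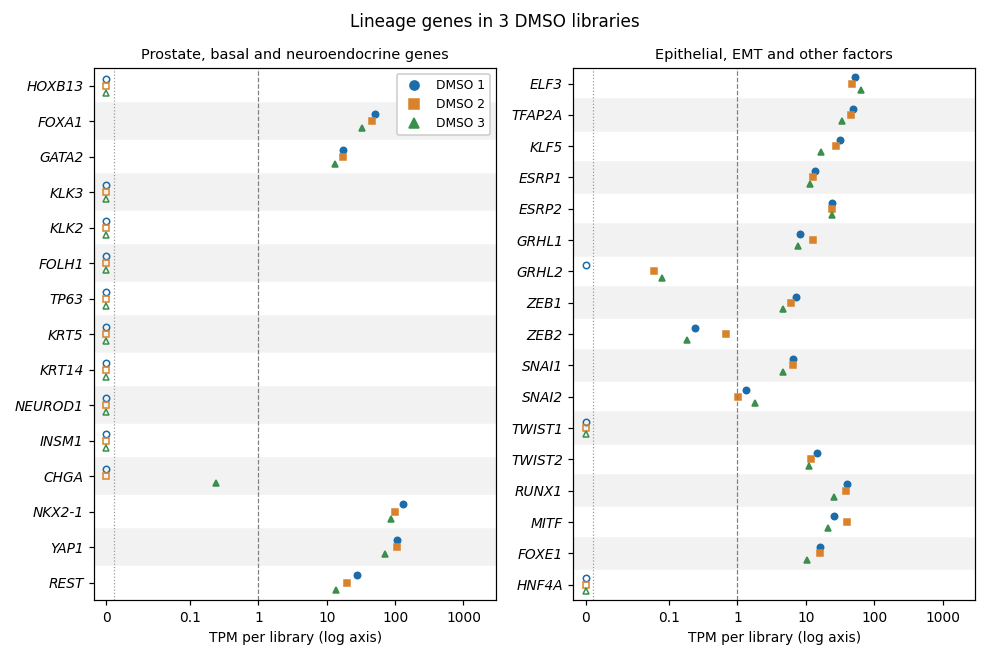
TPM of lineage genes (rows) in each DMSO library (points, log horizontal axis, open symbols at 0 are libraries with 0 TPM, dashed line at 1 TPM). HOXB13, KLK3, TP63 and NEUROD1 sit at 0 in all 3 libraries, while FOXA1, NKX2-1 and ELF3 lie above 30 TPM; CHGA and ZEB2 were added to the plot outside the rule for naming genes, after values were seen.

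The promoters of 4 of these genes are shown to set expressed genes beside genes at 0 counts. They run from 250 bases before to 50 bases after the transcription start, from RefSeq on GRCh38.p14, and each CG dinucleotide is in capitals. NKX2-1 and GSTP1, a glutathione transferase gene silenced in many prostate cancers, were expressed, at means of 106 and 151 TPM. CDH2, the gene of N-cadherin, and KLK3 had 0 counts. Their places are chr14:36520183-36520482 on the minus strand for NKX2-1, chr11:67583562-67583861 on the plus strand for GSTP1, chr18:28177081-28177380 on the minus strand for CDH2 and chr19:50854665-50854964 on the plus strand for KLK3.
NKX2-1: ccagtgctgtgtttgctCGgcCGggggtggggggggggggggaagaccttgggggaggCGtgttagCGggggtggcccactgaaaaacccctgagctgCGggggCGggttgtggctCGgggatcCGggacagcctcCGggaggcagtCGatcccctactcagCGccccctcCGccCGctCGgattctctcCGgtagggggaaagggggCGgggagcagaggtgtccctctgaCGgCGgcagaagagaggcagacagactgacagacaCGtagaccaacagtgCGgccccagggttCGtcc
GSTP1: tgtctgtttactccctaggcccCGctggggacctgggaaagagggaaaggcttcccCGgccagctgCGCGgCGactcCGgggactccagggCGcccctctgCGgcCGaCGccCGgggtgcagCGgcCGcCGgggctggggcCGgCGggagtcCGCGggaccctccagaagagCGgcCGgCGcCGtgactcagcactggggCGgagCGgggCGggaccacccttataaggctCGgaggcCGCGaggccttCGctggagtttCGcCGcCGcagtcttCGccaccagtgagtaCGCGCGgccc
CDH2: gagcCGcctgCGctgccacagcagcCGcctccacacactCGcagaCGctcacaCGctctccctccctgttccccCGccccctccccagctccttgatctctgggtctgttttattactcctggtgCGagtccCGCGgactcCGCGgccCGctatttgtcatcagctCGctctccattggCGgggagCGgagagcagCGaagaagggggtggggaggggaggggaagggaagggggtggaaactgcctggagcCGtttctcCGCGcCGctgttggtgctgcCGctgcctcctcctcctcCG
KLK3: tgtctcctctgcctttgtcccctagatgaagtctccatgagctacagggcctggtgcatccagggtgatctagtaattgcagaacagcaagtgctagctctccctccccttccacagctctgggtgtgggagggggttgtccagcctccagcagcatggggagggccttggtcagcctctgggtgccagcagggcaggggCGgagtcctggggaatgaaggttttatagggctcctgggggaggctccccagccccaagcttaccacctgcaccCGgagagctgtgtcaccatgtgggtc
These windows hold 21 CG dinucleotides in NKX2-1, 36 in GSTP1, 23 in CDH2 and 2 in KLK3. The letters TATAAA, searched on both strands, occur in the KLK3 window alone of these 4, and the letters GGGCGG occur in all 4. Over the 27195 promoters of that RefSeq table the median was 14 CG dinucleotides, TATAAA was in 11.97% and GGGCGG in 44.7%. For the expressed protein-coding genes, of which 9911 of 12120 (81.8%) had a promoter in the table, the median was 27. For those at the floor, of which 3953 of 5604 (70.5%) had one, the median was 5, with quartiles of 2 and 15. TATAAA was in 5.17% of the windows of expressed genes and in 20.0% of those at the floor. Thus KLK3 lay far under and GSTP1 above the median of expressed genes, while the CDH2 window, from a gene at 0 counts, was as dense in CG as that of NKX2-1. Among genes at the floor, KLK3 lay at the lower quartile and CDH2 above the upper one. A match of letters is a description of the window and says nothing on which factor binds there.

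Of 18 epithelial transcription factors 11 were expressed (61.1%, close to the 60.9% of all protein-coding genes) and 5 were at the floor. ELF3, an epithelial ETS factor, led with 52.6, 47.5 and 65.2 TPM and was highest in DMSO 3. TFAP2A and KLF5, which maintain epithelial programmes, had 49.7, 46.5 and 34.04 TPM and 31.96, 27.3 and 16.6 TPM, both lowest in DMSO 3. ESRP2, a splicing regulator of epithelial isoforms, was nearly the same in each library at 24.1, 24.3 and 23.98 TPM. GRHL2, a factor that sustains CDH1 in many epithelia, was at the floor with 0, 1 and 1 counts, although its relative GRHL1 had 8.11, 12.6 and 7.78 TPM. ELF5 and CDX2 had 0 counts.

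The factors of epithelial to mesenchymal transition (EMT), which repress epithelial genes, were low but in part expressed. Of 15 genes 7 were expressed (46.7%, against 60.9% of all protein-coding genes) and 5 were at the floor (33.3%, against 28.1%). TWIST2 had 14.3, 11.8 and 11.2 TPM, ZEB1 7.16, 5.99 and 4.70 TPM and SNAI1 6.55, 6.59 and 4.58 TPM, while TWIST1 and FOXC2 had 0 counts. SNAI2 was close to the threshold at 1.32, 1.03 and 1.80 TPM. In each of the 3 libraries TWIST2, the highest of them, lay under ELF3, TFAP2A, KLF5 and ESRP2.

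Factors of other lineages were expressed less often than protein-coding genes at large, but several were clearly present. Of 52 factors of other tissues 14 were expressed (26.9%, against 60.9% of all protein-coding genes), 13 were in between and 25 were at the floor (48.1%, against 28.1%). RUNX1, a factor best known in blood, had 40.1, 39.2 and 25.9 TPM, MITF, known in melanocytes, had 25.6, 40.2 and 21.2 TPM, and FOXE1, known in thyroid, had 16.1, 16.3 and 10.4 TPM. HNF4A, TAL1 and FLI1, factors of liver and gut, of blood and of endothelium, had 0 counts. Among the ETS genes that fuse in prostate cancer, ETV5 and ETV4 had 49.3, 61.4 and 40.5 TPM and 27.1, 39.2 and 27.6 TPM, ETV1 had 0 counts and ERG had 0.4, 0.58 and 0.28 TPM. HOX genes, which record position along the body axis, were expressed in 23 of 39 cases (59.0%, close to the 60.9% of all protein-coding genes). HOXB7 led with 31.8, 34.2 and 30.2 TPM, HOXA10 had 22.97, 19.9 and 16.5 TPM and HOXC10 had 21.7, 15.7 and 18.8 TPM, against 0 counts for HOXB13.

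**Figure D3:**
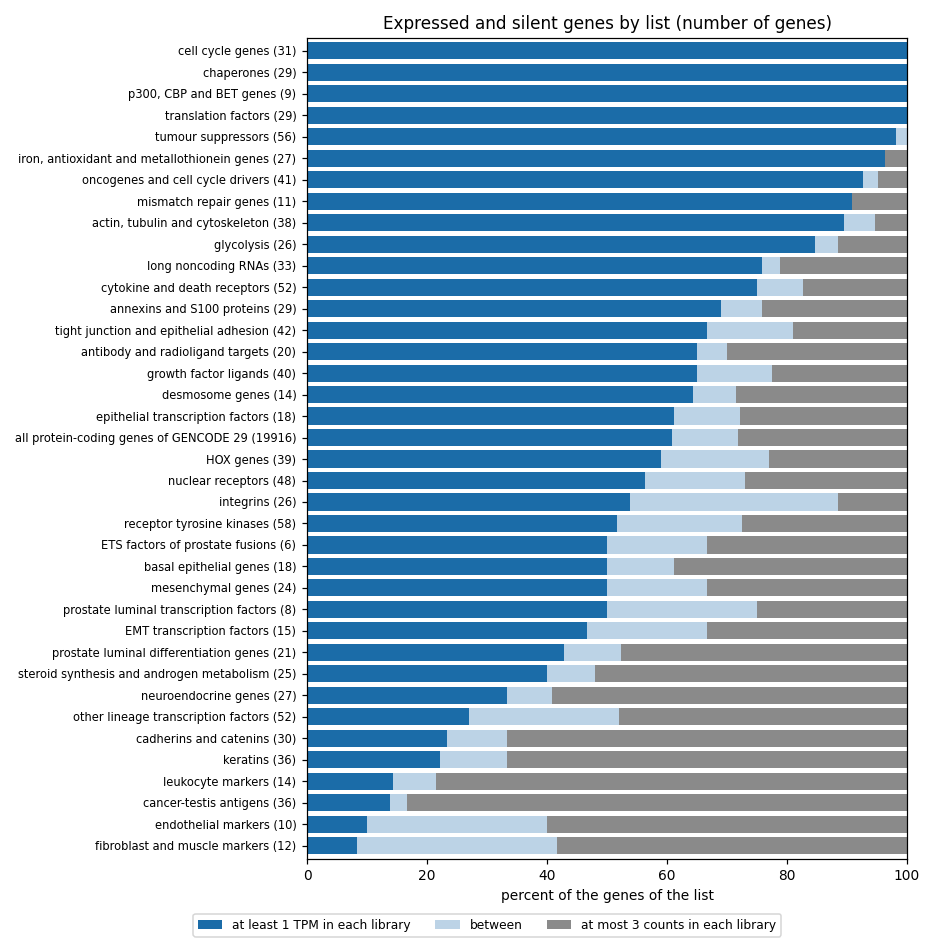
Share of each gene list (rows, number of genes in brackets) that reached 1 TPM in every DMSO library, lay between, or held at most 3 counts in every library. Cell cycle, chaperone and translation lists are wholly expressed, 60.9% of all protein-coding genes are, and cancer-testis, leukocyte, endothelial and fibroblast lists lie under 15%.

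Few keratins were expressed, 8 of 36 (22.2%, against 60.9% of all protein-coding genes), and 24 were at the floor (66.7%, against 28.1%). KRT7, a keratin of glandular epithelia, led with 993, 950.3 and 878 TPM, ahead of KRT18 in each library. KRT8, which pairs with KRT18 in filaments, had 754, 690.2 and 690.3 TPM. KRT19, also found in simple epithelia, had 602, 554 and 458 TPM. KRT80 had 57.5, 54.2 and 45.9 TPM and KRT10, a keratin of stratified epidermis, 37.3, 27.8 and 78.2 TPM, where DMSO 3 was the outlying library. The other expressed keratins were KRT15 and KRT81, at 3.12, 4.23 and 4.72 TPM and 2.25, 2.13 and 2.29 TPM.

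The classical cadherins of epithelia were expressed and those of mesenchyme were not. CDH3, the gene of P-cadherin, had 108, 94.3 and 90.4 TPM and CDH1, the gene of E-cadherin, 75.1, 79.5 and 49.3 TPM, so that CDH3 was the higher of the 2 in each library. Among the other listed genes with a CDH symbol CDH24 alone was expressed, at 18.99, 19.2 and 15.6 TPM, and CDH2, CDH11, CDH4 and CDH6 had 0 counts in every library. The catenins, which tie cadherins to actin, were higher: CTNNA1 had 241, 241 and 185 TPM, CTNNB1 212, 187 and 158 TPM and JUP 121, 124 and 88.3 TPM. Of 30 cadherin and catenin genes 7 were expressed (23.3%) and 20 were at the floor (66.7%, against 28.1% of all protein-coding genes).

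Of 42 genes of tight junctions and epithelial adhesion 28 were expressed (66.7%), as were 9 of 14 desmosome genes (64.3%), both close to the 60.9% of all protein-coding genes. ICAM1, a ligand of leukocyte integrins, had 306, 283 and 258 TPM. CLDN7 and CLDN4, claudins that seal the space between epithelial cells, had 121, 86.9 and 97.8 TPM and 84.6, 63.98 and 65.5 TPM, and F11R, a junctional adhesion molecule, was steady at 75.2, 74.02 and 75.8 TPM. DSG2 and DSP, a cadherin and the plakin of desmosomes, had 162, 174 and 130.0 TPM and 42.5, 46.98 and 33.9 TPM, while the skin desmosome genes DSG1, DSG4 and DSC1 had 0 counts. Among integrins, ITGB1 and ITGA3, which pair into a laminin receptor, led with 838, 831 and 725 TPM and 428, 424 and 347 TPM. The collagen receptor chain ITGA2 had 74.7, 79.8 and 53.9 TPM and the fibronectin receptor chain ITGA5 68.05, 53.4 and 47.2 TPM, and ITGAL, a leukocyte integrin, had 0 counts.

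Mesenchymal genes were expressed in 12 of 24 cases (50%, against 60.9% of all protein-coding genes), and LGALS1 and VIM led. VIM, the intermediate filament gene of mesenchymal cells, had 1153, 1148 and 789 TPM, or 1030.1 ± 209 (SD, n = 3), and so exceeded KRT18 in DMSO 1 and DMSO 2 but was level with it in DMSO 3. LGALS1, a galectin, had 1357, 1095 and 1738 TPM, COL6A1 132, 142 and 98.8 TPM and CAV1, the coat protein of caveolae, 97.2, 113 and 55.96 TPM. SPARC, MMP2, COL3A1 and FAP, products of matrix-making cells, had 0 counts, as did CDH2 and CDH11. Epithelial and mesenchymal intermediate filaments were thus both among the abundant transcripts of these libraries, and the libraries cannot show whether the same cells held both.

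**Figure D4:**
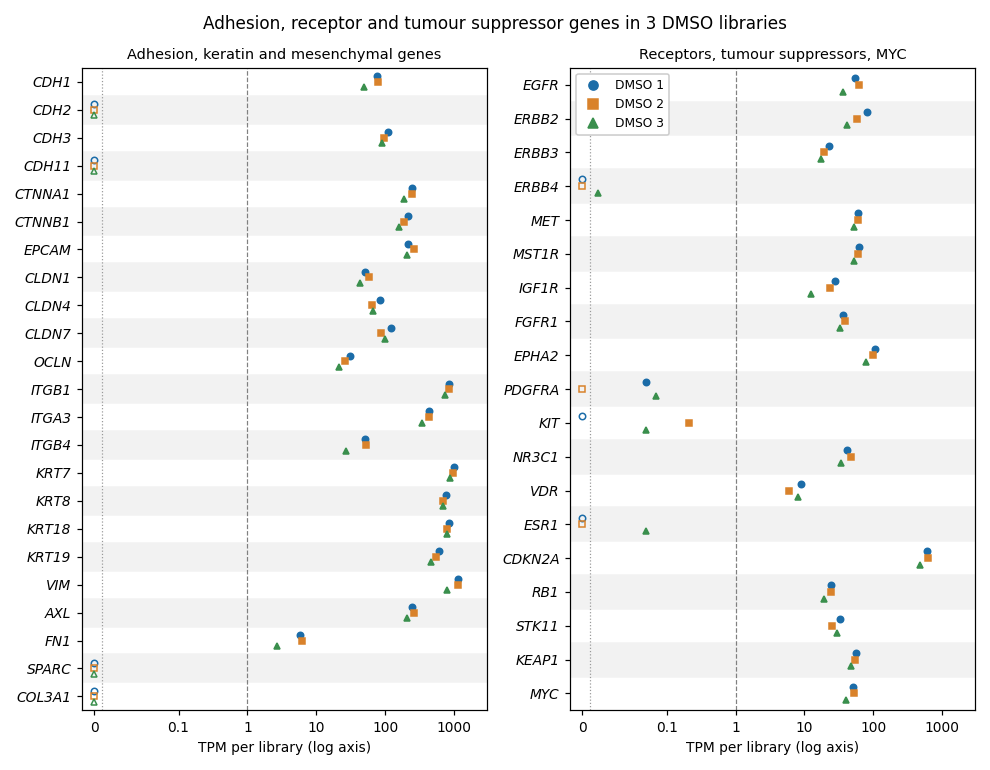
TPM of adhesion, keratin and mesenchymal genes (left) and of receptors, tumour suppressors and MYC (right) in each DMSO library (points, log horizontal axis, open symbols at 0, dashed line at 1 TPM). CDH1 and VIM are both above 40 TPM, CDH2 and SPARC are at 0, and every tumour suppressor plotted lies above 5 TPM; CLDN1, OCLN, FN1, ERBB3, IGF1R, FGFR1 and KIT were added outside the rule for naming genes, after values were seen.

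Receptor tyrosine kinases were expressed in 30 of 58 cases (51.7%, against 60.9% of all protein-coding genes), and 16 were at the floor (27.6%, against 28.1%). AXL, a receptor for GAS6, led with 244, 259.7 and 209 TPM, or 238 ± 25.97 (SD, n = 3). DDR1, a collagen receptor, had 134, 88.97 and 146 TPM and EPHA2, an ephrin receptor, 106, 98.2 and 77.01 TPM. ERBB2, the partner of other EGFR family members, had 80.8, 58.1 and 42.04 TPM, and EGFR itself had 53.9, 61 and 35.8 TPM. MET, the receptor of HGF, had 60.5, 60.6 and 51.8 TPM and its relative MST1R 61.9, 59.9 and 51.95 TPM. The ranges of those last 4 overlapped across libraries, so their order is not settled by 3 libraries. ERBB2 and EGFR were lowest in DMSO 3, also on TMM CPM, at 147, 139 and 133 for ERBB2 and 358, 384 and 271 for EGFR. The range of ERBB2 on that scale was 1.10-fold. ERBB4 had 0, 0 and 1 counts, PDGFRA 1, 0 and 1 and NTRK2 0, 1 and 0, and FLT1, TIE1 and NTRK3 had 0 counts.

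Ligands of the same receptors were found in the same libraries. AREG and EREG, ligands of EGFR, had 329, 289.6 and 319.9 TPM and 78.5, 85.2 and 68.8 TPM, and TGFA had 41.5, 42.2 and 32.7 TPM. VEGFA, which acts on endothelial receptors, was the highest of the 40 ligands at 355, 392 and 321 TPM. PROS1, a ligand of the AXL family, had 45, 37.9 and 33.95 TPM, and HGF, the ligand of MET, had 0 counts, as did NRG3. Of the list 26 genes were expressed (65%, close to the 60.9% of all protein-coding genes) and 9 were at the floor (22.5%).

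Nuclear receptors, which are factors switched by small ligands, were expressed in 27 of 48 cases (56.25%, close to the 60.9% of all protein-coding genes). None reached a mean of 100 TPM. NR1H2, a liver X receptor, had 57.7, 46.4 and 53.6 TPM. RARG, a retinoic acid receptor, had 57.1, 38.6 and 48.5 TPM and ESRRA, an oestrogen-related receptor, 40.5, 32.4 and 52.5 TPM, with all 3 ranges overlapping. NR2F2, an orphan receptor, ranged from 26.4 TPM in DMSO 3 to 67.7 TPM in DMSO 2, but had 80.02, 72.4 and 61.1 TMM CPM, which is a 1.31-fold range with DMSO 1 highest (TMM CPM being counts scaled to library size and composition, without correction for length). NR3C1, the glucocorticoid receptor, had 40.8, 47.4 and 33.8 TPM, or 40.7 ± 6.80 (SD, n = 3), and VDR, the vitamin D receptor, 8.87, 5.89 and 8.07 TPM. The oestrogen receptor ESR1 had 0, 0 and 2 counts. Among enzymes of steroid metabolism, SRD5A1, a 5-alpha reductase, had 59.5, 47.5 and 33.4 TPM and AKR1C3, which makes testosterone from androstenedione, 12.2, 14.6 and 11.7 TPM. SRD5A2, HSD3B1, HSD3B2 and CYP11A1, the last being the first enzyme of steroid synthesis, had 0 counts. At the floor were 13 of the 25 genes (52%, against 28.1% of all protein-coding genes).

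Of 52 cytokine and death receptors 39 were expressed (75%, against 60.9% of all protein-coding genes) and 9 were at the floor (17.3%, against 28.1%). TNFRSF12A and TNFRSF1A, receptors of the tumour necrosis factor family, had 249, 174 and 276 TPM and 241, 210.2 and 179 TPM. OSMR and IL6ST, the chains that bind oncostatin M together, had 203, 209 and 148 TPM and 119, 112 and 64.4 TPM. The interferon receptor chains IFNGR2 and IFNAR1 had 72.7, 57.1 and 61.3 TPM and 72.5, 64.1 and 46.04 TPM. PRLR, the prolactin receptor, IL13RA2 and CXCR1 had 0 counts. Of 20 targets of antibodies and radioligands in clinical use or trial, 13 were expressed (65%, close to the 60.9% of all protein-coding genes). At the floor were 6 (30%, against 28.1%). CD276 had 93.5, 113 and 58.7 TPM, but 140, 138 and 133 TMM CPM, which is a 1.05-fold range. STEAP1 had 19.2, 21.3 and 25.7 TPM, while FOLH1, CEACAM5 and FAP had 0 counts.

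Transcripts of tumour suppressors were nearly all present: 55 of 56 were expressed (98.2%, against 60.9% of all protein-coding genes). None was at the floor, against 28.1% of all protein-coding genes. The exception, which did not reach 1 TPM in each library and is named after its values were seen, was INPP4B, a lipid phosphatase, at 0.84, 1.94 and 0.73 TPM. CDKN2A (ENSG00000147889, chromosome 9, 21967753 to 21995301, minus strand), which encodes the cell cycle inhibitor p16 and, in another frame, ARF, led with 600.1, 624 and 476 TPM, or 567 ± 79.6 (SD, n = 3), and the gene level does not separate the 2 products. RB1, which p16 acts through, had 24.3, 24.1 and 19.04 TPM, or 22.5 ± 2.98 (SD, n = 3). STK11, a kinase of energy sensing, had 32.8, 25.5 and 29.4 TPM and KEAP1, which holds NRF2 in check, 55.99, 54.9 and 47.3 TPM. GSTP1 had 160.1, 160.0 and 132 TPM and CDKN1A, an inhibitor of cyclin-dependent kinases, 57.5, 52.9 and 50.02 TPM. The ranges of RB1 and STK11 did not overlap, and CDKN2A stood above every other tumour suppressor of the list in all 3 libraries.

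Mismatch repair genes, which fix copying errors in DNA, were expressed in 10 of 11 cases (90.9%, against 60.9% of all protein-coding genes). MSH4, a gene of meiosis, was at the floor. MSH6, which recognises mismatches, had 66.2, 93.6 and 64.1 TPM and was highest in DMSO 2. PMS2, an endonuclease subunit, had 14.6, 18.8 and 13.99 TPM, under MSH6 in each library.

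Genes of proliferation were expressed without exception, with 31 of 31 cell cycle genes (100%, against 60.9% of all protein-coding genes). UBE2C, which helps to degrade cyclins, had 307, 262 and 302 TPM, CCNB1, the mitotic cyclin, 227, 231 and 220.1 TPM and MCM4, a helicase subunit, 265, 362 and 175 TPM. On TMM CPM MCM4 had 407, 417 and 379, which is a 1.10-fold range. Oncogenes and drivers of the cell cycle were expressed in 38 of 41 cases (92.7%). MCL1, which blocks apoptosis, was steady at 291, 288 and 281 TPM, CCND1 had 189, 214 and 149.9 TPM and MYC had 50.2, 52.1 and 40.5 TPM, while its relative MYCN had 0 counts and CCND2 had 0, 0 and 2. Transcripts of the bromodomain proteins that CCS1477 targets, p300 and CBP, were present: CREBBP had 20.7, 24.4 and 12.98 TPM and EP300 19.6, 12.2 and 9.87 TPM, with overlapping ranges. BRD2, of the BET family, had 228, 225 and 176 TPM, and BRDT, the testis member of that family, was expressed at 7.37, 8.05 and 10.04 TPM.

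Cancer-testis antigens, genes normally limited to the germ line, were at the floor in 30 of 36 cases (83.3%, against 28.1% of all protein-coding genes). Of the 36, 28 had 0 counts. XAGE1A had 123, 96.2 and 194 TPM, PRAME 23.7, 23.6 and 25.1 TPM and DDX43, an RNA helicase, 12.3, 12.98 and 10.5 TPM. XAGE1B, a near-identical copy of XAGE1A, had 22.5, 2.52 and 19.1 TPM from 55, 5 and 49 counts, and reads may be split between the copies. MAGEA1, MAGEA3 and MAGEA4 had 0 counts. Among 33 listed long noncoding RNAs 25 were expressed (75.8%, against 23.3% of all 60623 gene IDs). A share over noncoding genes alone was not computed. SNHG6 and GAS5, host transcripts of small nucleolar RNAs, had 498, 410.2 and 699 TPM and 301, 269 and 386 TPM, and NEAT1, the scaffold of paraspeckles, had 144, 197 and 409 TPM. PCGEM1 and SCHLAP1, noncoding RNAs known from prostate tissue and cancer, had 0 counts.

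The spread between the 3 libraries varied with expression level and with transcript length. The common biological coefficient of variation, which is the spread left after counting error, was 14.3% in edgeR over 14483 genes. By mean count, its trend went from 22.6% under 30 counts to 11.9% between 1000 and 3000 counts. Without DMSO 3 the common value was 10.8%, without DMSO 2 it was 13.3% and without DMSO 1 it was 17.7%. Over the 8640 protein-coding genes with a mean of at least 10 TPM, the median absolute log2 difference in TPM was 0.18 between DMSO 1 and DMSO 2, 0.26 between DMSO 1 and DMSO 3 and 0.31 between DMSO 2 and DMSO 3. Pearson's r of log2(TPM + 0.1) across these genes, which are not independent replicates, was 0.970, 0.968 and 0.946 for the same pairs. DMSO 1 thus lay between the others.

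Genes whose highest library exceeded the lowest by over 2-fold numbered 602 of 9206 gene IDs with a mean of at least 10 TPM (6.54%), and 455 of the 8640 protein-coding genes (5.27%). On CPM scaled by TMM factors, which takes no account of transcript length, these counts were 326 and 196. Among the 196, the library farthest from the other libraries was DMSO 3 on the high side in 126 cases and on the low side in 10, and DMSO 2 on the high side in 6 and on the low side in 46. The balance differed on TPM: among the 455, it was DMSO 3 on the high side in 110 cases and on the low side in 157, and DMSO 2 on the high side in 71 and on the low side in 68. Without DMSO 3 the count of 602 became 168, without DMSO 2 it became 229 and without DMSO 1 it became 472.

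**Figure D5:**
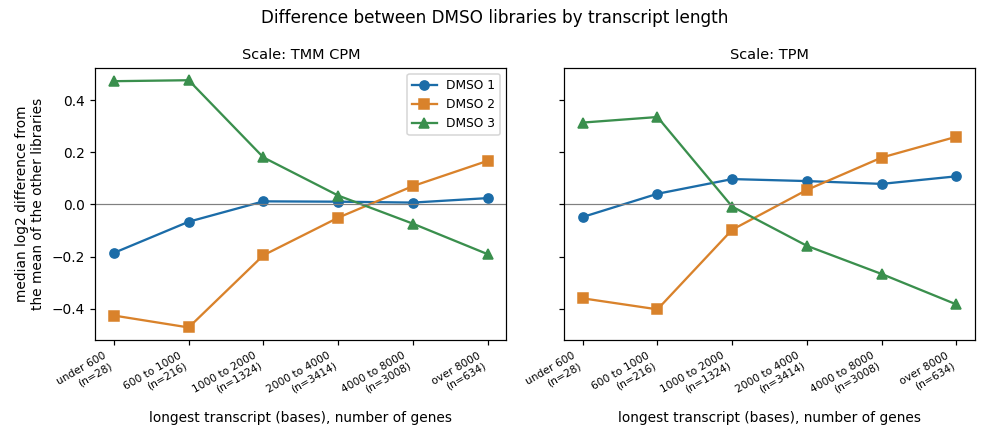
Median log2 difference of each DMSO library from the mean of the other libraries (vertical axis) for protein-coding genes grouped by their longest transcript (horizontal axis, number of genes below), on TMM CPM (left) and TPM (right). On TMM CPM, DMSO 3 goes from 0.47 for the shortest to -0.19 for the longest transcripts, DMSO 2 goes the other way from -0.43 to 0.17, and DMSO 1 stays between -0.19 and 0.02.

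Short transcripts were more abundant in DMSO 3 and less so in DMSO 2. On TMM CPM the 216 genes with a longest transcript of 600 to 1000 bases had a median log2 difference from the mean of the other libraries of 0.48 in DMSO 3, -0.47 in DMSO 2 and -0.07 in DMSO 1. The 634 genes over 8000 bases had -0.19 in DMSO 3, 0.17 in DMSO 2 and 0.02 in DMSO 1. On TPM the direction of these trends in DMSO 2 and DMSO 3 was the same. The shorter group had 0.34 in DMSO 3 and -0.40 in DMSO 2, and the longer group -0.38 in DMSO 3 and 0.26 in DMSO 2. Ribosomal protein genes, many of which are short, followed: 71 of 84 expressed ones were above both other libraries in DMSO 3 on TMM CPM, against 38.6% of 8627 nuclear protein-coding genes. On TPM it was 56 of 84, against 20.0%. Of the 8627 genes, 5166 were below both other libraries in DMSO 3 on TPM, and 3368 on TMM CPM. By GC content the differences were smaller: the 1327 genes whose longest transcript was over 60% GC had medians on TMM CPM of 0.13, -0.19 and 0.07 in DMSO 1, 2 and 3. DMSO 3 was also the shallowest library, and the part of depth or of RNA quality in these trends was not tested.

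Single genes did not all follow these trends. RPS29 had 5839.9, 4548 and 17830.5 TPM and MT-ND3 had 8807, 6737 and 17689 TPM, in both cases highest in DMSO 3 and lowest in DMSO 2. HSPE1, a mitochondrial chaperonin subunit, had 244, 149.9 and 457 TPM from 593, 381 and 883 counts. RN7SL1 and RN7SL2, the RNAs of the signal recognition particle, were named after their values were seen: they had 497, 512 and 3058 TPM and 305, 279 and 3429 TPM. DMSO 3 was thus several times higher than the others in these RNAs, which have no poly-A tail. NDUFA1, a complex I subunit chosen in the same way, had 69.6, 36.7 and 340.8 TPM from 88, 49 and 345 counts. Against the trends, MT-ATP8, with 207 bases of exon, was highest in DMSO 2, and NEAT1, with 22767 bases of exon, was highest in DMSO 3 at 144, 197 and 409 TPM from 4306, 6154 and 8179 counts.

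In other genes the TPM values differed between libraries where the counts did not. TNS2, a focal adhesion protein chosen after its values were seen, had 71.5, 4.32 and 8.39 TPM from 166, 140 and 110 counts, a range of 16.2-fold in TPM but 1.18-fold in TMM CPM. ASCC2, chosen likewise, had an 8.98-fold range in TPM and 1.08-fold in TMM CPM, and ZHX3, also so chosen, 6.84-fold and 1.15-fold. For such genes the level depends on the scale, and the transcript lengths behind the deposited TPM values were not given in the sources used here. Among the genes with the 15 largest TPM ranges over all gene IDs, most rest on few reads: RNU2-11P ranged from 0 to 143.5 TPM on 2 counts in all. For the listed genes the 10 largest TPM ranges were 8.62-fold in XAGE1B, 3.10-fold in S100A6, 3.10-fold in SNHG8, 3.05-fold in HSPE1, 2.95-fold in SNHG5, 2.85-fold in NEAT1, 2.81-fold in KRT10, 2.76-fold in NECTIN3, 2.56-fold in NR2F2 and 2.55-fold in BRAF. On TMM CPM 4 of them were narrower by over 1.5 times, at 1.60-fold in SNHG8, 1.52-fold in NECTIN3, 1.31-fold in NR2F2 and 1.20-fold in BRAF, while XAGE1B had 11.6-fold and the others 2.52-fold to 3.39-fold. NECTIN3, a nectin of adherens junctions, was lowest in DMSO 3 on both scales, at 19.2, 22.5 and 8.09 TPM and 21.99, 22.6 and 14.8 TMM CPM. BRAF, a kinase of the MAP kinase pathway, was lowest in DMSO 3 on TPM, at 13.1, 20.3 and 7.89, but in DMSO 1 on TMM CPM, at 38.7, 46.3 and 39.8.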

How the data were processed

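Poly-A RNA of DU145 cells given DMSO was sequenced in 3 libraries. The titles of the samples gave the group and number of each library, and the treated libraries entered no computation. The authors deposited 1 table of estimated counts, not normalized, and 1 table of TPM, each with 60623 gene IDs, of which 58516 are in GENCODE 29. Per the submitters' processing notes, reads were trimmed with Trimmomatic 0.39. Aligner, quantifier, annotation, genome build and strand setting: not given in the sources used here. Reads of overlapping, antisense or near-identical genes may therefore be shared. Between 10.3% and 10.6% of the nonzero counts of a library were not whole, and counts were rounded before use.

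Levels are deposited TPM per library with mean ± SD, and detection rests on counts. The floor of 3 counts covers counting error only. The biological coefficient of variation came from edgeR 4.0.16 in R 4.3.3 with TMM factors after filterByExpr (minimum count 10, minimum total 15), and its script was tested on simulated data. Ranges used log2(TPM + 0.1) for genes with a mean of at least 10 TPM. Tables and plots were made in Python 3.11.15 with pandas 2.3.3 and matplotlib 3.10.9. No test was made, since 1 group has no comparison.

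The DMSO libraries and 37 lists of 982 genes were chosen with earlier results of these data known. Genes named are the 25 highest by TPM, per list up to 8 highest and up to 6 at the floor (all for lists of 12 or fewer), the 15 largest ranges, the 10 largest among listed genes, and a fixed set of lineage, receptor and tumour suppressor genes. Some of these genes are not reported here. Any other gene is marked in the text as picked with its values known. Alternatives were other thresholds, rescaling without mitochondrial genes, counts in place of TPM, other scaling and leaving out each library. A restriction to protein-coding genes was added after the data were seen. Promoter sequences are from RefSeq on GRCh38.p14.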

Additional observations from a re-analysis of the deposited data

How the results depend on the processing

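No paired analysis was possible because only DMSO libraries were used and no result comes from a test. The share of TPM held by the 100 leading genes, 36.1%, was 26.8% after rescaling without mitochondrial genes and 17.9% as a share of counts, and the mitochondrial share of 15.03% of TPM was 5.52% of counts. The 602 genes with a range over 2-fold became 326 on TMM CPM and 2837 when genes with a mean of at least 1 TPM entered. Leaving out 1 library gave 168 to 472, with 168 without DMSO 3 and 229 without DMSO 2. Other choices moved the number of expressed gene IDs between 12750 and 15355, against 14127. Of the 14127, 12120 were protein-coding. For single genes, rescaling without mitochondrial genes, which raises TPM by a factor of 1.15 to 1.21, moved 154 of 440 levels by more than 1 SD. Requiring 0 counts in place of at most 3 moved the number at the floor by over 1.5 times in 15 of 37 lists. Depth limits low genes most: at a mean under 30 counts the counting error alone had a median of 22.4%.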
